A study of Mus musculus with 12 samples.

Results

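The transcripts of 9 genes that mark classes of GABAergic interneurons were followed through bulk RNA sequencing of the mouse ventral hippocampus: Reln, Lamp5, Vip, Calb2, Pvalb, Sst, Npy, Cort and Cck. They were taken by name from a table of 13951 Ensembl identifiers, and all 9 were found and passed the filter on low values. The genes were chosen by their roles as class markers and by their AS minus WT differences in this table, AS standing for mice labelled with Angelman syndrome and WT for wild-type mice. Differences between AS and WT mice in these genes are therefore given as descriptions, and how many passed a threshold is printed only beside the same share of all genes. The difference between the sexes in the genotype effect, and the sex differences within 1 genotype, are built from the same group means and are not independent of that choice. The sex difference over both genotypes does not draw on it. Polyadenylated RNA was sequenced from 12 C57BL/6J mice aged 12 to 16 weeks, 1 library per mouse, from the frozen ventral part of the right hippocampus. The 4 groups were WT females, AS females, WT males and AS males, with 3 mice in each, the WT mice being labelled as controls. The labels do not state the mutation carried by the AS mice, its parental origin or how many litters were used. Values are log2(abundance + 1), where abundance is the gene-level estimate of RSEM, the program that assigned the reads, and errors on differences are standard errors of the limma fit.

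Interneurons release GABA and fall into classes that are told apart by the peptides and calcium-binding proteins they make. Reelin, the product of Reln, is a large secreted glycoprotein that binds the receptors encoded by Vldlr and Lrp8 and acts through the adaptor encoded by Dab1. During development it comes from Cajal-Retzius cells, and in the adult hippocampus it is made mainly by neurogliaform and other dendrite-targeting interneurons, many of which also express Lamp5. Vip and Calb2 mark cells that mostly contact other interneurons, Pvalb marks fast-spiking basket and axo-axonic cells, and Sst marks dendrite-targeting cells that often also make Npy or Cort. Cck marks a further class of basket cells and is also expressed by pyramidal neurons, while Calb2 is also found in mossy cells of the ventral dentate gyrus and in thalamic neurons.

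The promoter windows of Reln, Lamp5, Vip and Sst are shown, the last because this peptide gene has a well-known cAMP response element. The first 3 were taken for their lower means in AS mice of both sexes, which Sst and Cck also had. Each window runs from 250 bases before to 50 bases after a transcription start in the RefSeq table (GRCm38.p6). It is written 5′ to 3′ on the gene's own strand. The windows are chr5:22344656-22344955 on the minus strand for Reln, chr2:136052089-136052388 on the plus strand for Lamp5, chr10:5638968-5639267 on the plus strand for Vip and chr16:23890795-23891094 on the minus strand for Sst. Capitals mark TGACG or its reverse complement CGTCA (the core of a cAMP response element), TAATTA (a homeodomain core) and CACGTG (an E-box).
Reln: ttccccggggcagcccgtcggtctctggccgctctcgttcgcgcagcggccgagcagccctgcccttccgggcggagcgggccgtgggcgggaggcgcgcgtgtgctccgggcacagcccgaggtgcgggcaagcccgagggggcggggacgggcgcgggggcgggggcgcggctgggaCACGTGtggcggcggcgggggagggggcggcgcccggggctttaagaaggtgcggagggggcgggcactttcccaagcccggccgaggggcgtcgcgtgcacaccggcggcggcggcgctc
Lamp5: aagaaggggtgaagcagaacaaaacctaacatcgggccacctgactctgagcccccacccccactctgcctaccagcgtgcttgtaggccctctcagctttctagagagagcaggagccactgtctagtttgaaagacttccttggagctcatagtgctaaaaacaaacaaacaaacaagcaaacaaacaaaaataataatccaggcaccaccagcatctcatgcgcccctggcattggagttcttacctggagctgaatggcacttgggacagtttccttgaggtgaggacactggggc
Vip: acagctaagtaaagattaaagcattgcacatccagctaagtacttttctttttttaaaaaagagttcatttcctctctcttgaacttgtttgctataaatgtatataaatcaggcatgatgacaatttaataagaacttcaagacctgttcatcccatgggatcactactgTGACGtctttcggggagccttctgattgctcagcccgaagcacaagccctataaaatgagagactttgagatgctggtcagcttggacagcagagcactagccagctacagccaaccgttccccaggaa
Sst: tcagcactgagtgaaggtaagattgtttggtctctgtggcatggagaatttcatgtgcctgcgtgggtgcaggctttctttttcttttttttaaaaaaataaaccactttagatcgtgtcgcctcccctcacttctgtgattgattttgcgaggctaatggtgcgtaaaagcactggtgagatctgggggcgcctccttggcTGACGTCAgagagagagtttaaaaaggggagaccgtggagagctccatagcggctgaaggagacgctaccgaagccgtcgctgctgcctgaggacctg

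Of the 9 genes, 8 had a window in this table, and Lamp5 and Pvalb had more than 1. The window of Reln was 80.7% G and C, against 41.7% for Vip, 50.3% for Sst, 50.7% for Lamp5 and a median of 52.7% over the 32851 windows of all genes. Reln held 1 CACGTG, 71 bases before the start, and none of the other searched letters, and the printed Lamp5 window held none of them. The Vip window held TGACGT 79 bases before the start and TATAAA 30, 147 and 157 bases before it. Sst held TGACGT on both strands, which overlap, 48 and 46 bases before the start. In the windows not printed, Cck held CGTCA 47 bases and CACGTG 66 bases before the start, and Cort held CGTCA 18 bases and TAATTA 85 bases before it. Searched on both strands, TGACG was present in 4 of the 8 genes and in 20.8% of all windows, and TGACGT, which contains it, in 2 of 8 and 7.51%. CACGTG was present in 2 of 8 and 7.15%, TAATTA in 1 of 8 and 5.29%, and TATAAA in 1 of 8 and 13.6%. These matches describe the letters and are not evidence of binding.

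Several libraries stood apart before any comparison of genotype. The library labelled WT female 1 had an Xist value of 0.35, against 6.00 to 6.45 in the other 5 female libraries and 0.17 to 0.52 in males, while its Y-linked Eif2s3y value of 0.68 was at the level of females (0.30 to 1.08) and not of males (5.74 to 6.06). The mean of 20 choroid plexus genes was 3.14 to 5.14 in 4 libraries (WT female 1 and 2, AS female 2, AS male 2) and 1.49 to 1.99 in the other 8. Their summed abundance was 212 to 4771 in WT females, 116 to 4521 in AS females, 93.0 to 158 in WT males and 94.9 to 934 in AS males. WT male 2 had the highest mean of 9 genes of neocortex and entorhinal cortex, 4.37 against 3.84 to 4.30 elsewhere, with the highest Tshz2 (5.32), Mef2c (5.82), Tbr1 (4.42) and Cux2 (3.68) of all libraries. Ube3a, the gene affected in Angelman syndrome, gave 4.09 to 4.34 in WT females, 3.95 to 4.25 in AS females, 3.99 to 4.22 in WT males and 3.78 to 4.31 in AS males. Its groups overlapped, and since the mutation is not stated these values do not check the genotype labels. No read depth can be recovered from the deposited values, so no counting error is given.

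All 9 genes were measured in every library, as was Gad1, the gene of a GABA-synthesizing enzyme that marks interneurons in general, which ranged from 7.08 to 7.46. Levels of different genes are set side by side as abundance, on the reading that it is TPM or FPKM, both of which are corrected for gene length, and that the deposited logs are natural logs. Neither is stated. With logs of base 2 the abundances would be several times smaller in the same order, since the total per library would be 121858 to 124206 and not 547558 to 587587. The median abundance over 12 libraries was 372 for Sst and 278 for Cck. It was 79.9 for Npy, 57.4 for Calb2 and 41.3 for Pvalb. It was 20.6 for Reln, 19.9 for Lamp5, 17.2 for Vip and 8.04 for Cort. The ranges over libraries of neighbours in this order overlapped except at 2 steps. Cck (196 to 322) lay wholly above Npy (70.0 to 99.1), and Vip (12.9 to 22.0) lay wholly above Cort (5.29 to 12.3). Reln, Lamp5 and Vip could not be ordered, since Reln ranged from 15.2 to 32.5 and Lamp5 from 15.1 to 40.7. Only Reln overlaps other annotated genes. Of those, 1 is in the table, a processed pseudogene on the opposite strand with a mean abundance of 1.39.

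**Figure D1:**
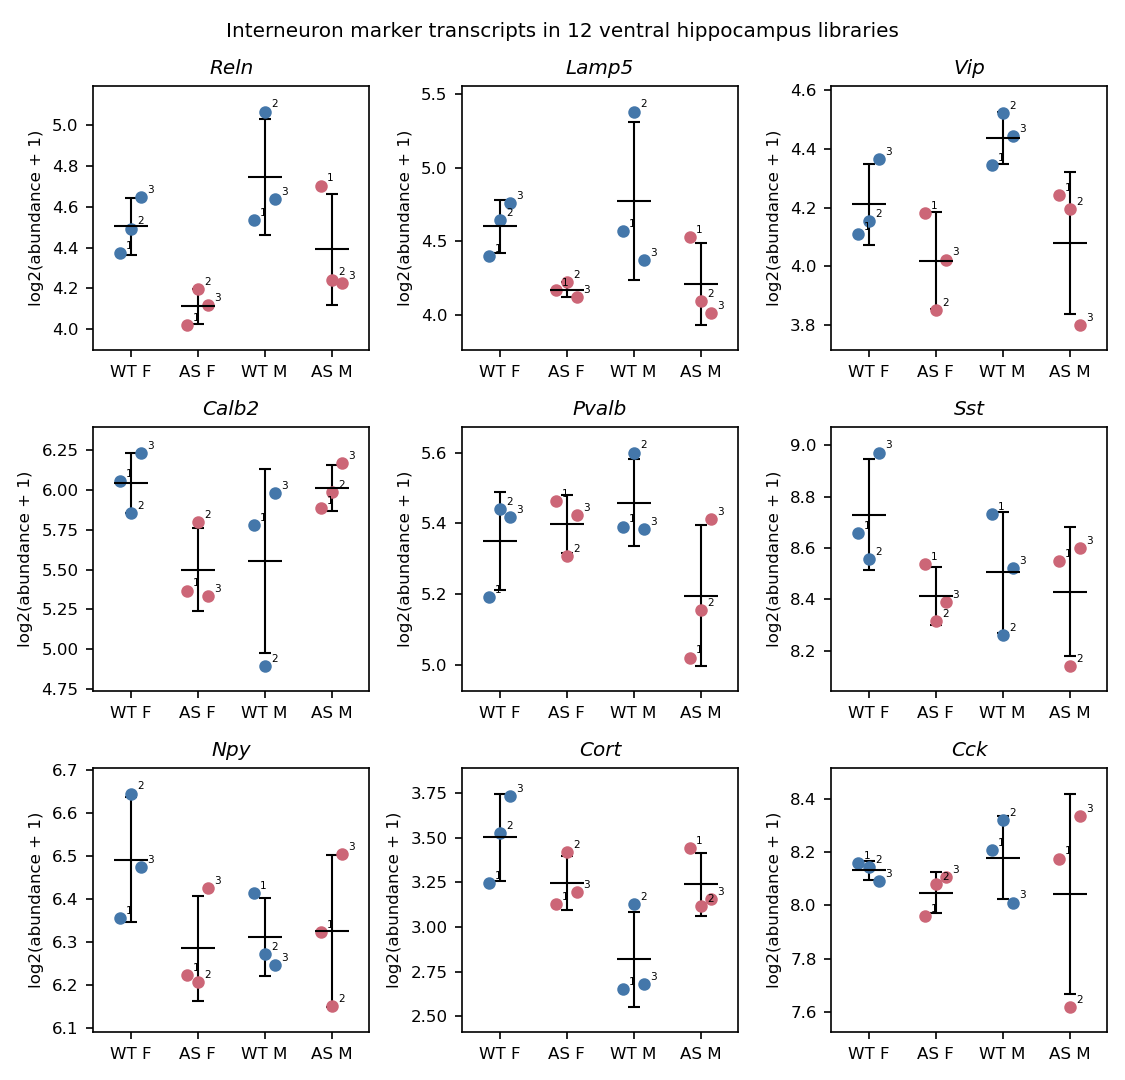
Each panel plots 1 gene as log2(abundance + 1) in the 12 libraries, with WT in blue, AS in red, replicate numbers beside the points and bars for the group mean ± SD (n = 3). Reln, Lamp5, Calb2 and Sst lie lower in all 3 AS females than in any WT female. WT male 2 is the highest library for Reln, Lamp5, Vip and Pvalb and the lowest for Calb2, and vertical axes differ between panels.

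Reln was lower on average in AS mice of both sexes. In WT females the 3 libraries gave 4.37, 4.49 and 4.65, and in AS females 4.02, 4.20 and 4.12. In WT males they gave 4.53, 5.07 and 4.64, and in AS males 4.70, 4.24 and 4.23. All AS females lay below all WT females, whereas AS male 1 lay above 2 of the 3 WT males. The AS minus WT difference was -0.39 ± 0.15 in females, -0.35 ± 0.15 in males and -0.37 ± 0.11 over both sexes, with a 95% interval of -0.61 to -0.14. On the abundance scale the group means were 21.7 ± 2.2 and 16.3 ± 1.0 in WT and AS females and 26.2 ± 5.5 and 20.2 ± 4.2 in WT and AS males (SD, n = 3). In bulk tissue, fewer Reln-expressing cells and less Reln RNA per cell cannot be told apart. Reln is itself on the list of neocortex and entorhinal cortex markers, as is Lamp5. The highest library for Reln, WT male 2, was also the highest in the mean of the 9 measured genes of that list other than Reln and Lamp5. That mean was 3.84 to 4.21 in WT females, 3.90 to 4.17 in AS females, 4.13 to 4.37 in WT males and 3.97 to 4.19 in AS males, and 6 of the 9 were lower in AS mice over both sexes, with a median of -0.04. When WT male 2 was left out, males differed by -0.20 ± 0.14 and both sexes together by -0.29 ± 0.09, and with the mean of the 9 cortical genes as a covariate it was -0.19 ± 0.15 and -0.29 ± 0.10. Without the library labelled WT female 1 it was -0.46 ± 0.17 in females, and without the 4 libraries rich in choroid plexus RNA it was -0.43 ± 0.16 over both sexes. The latter fit leaves WT female 3, the highest WT female for Reln, as the only WT female. Of 9 markers of Cajal-Retzius cells, 4 were measured, including Reln and Calb2. Of these, Ndnf differed by 0.01 ± 0.19 over both sexes, and Cacna2d2 by 0.16 ± 0.14 in females and -0.16 ± 0.14 in males.

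Lamp5, which encodes a membrane protein of the lysosome-associated family and marks neurogliaform cells, followed the same order as Reln. WT females gave 4.40, 4.64 and 4.76 and AS females 4.17, 4.22 and 4.12. WT males gave 4.57, 5.38 and 4.37 and AS males 4.53, 4.09 and 4.01. The female groups did not overlap, and in males AS male 1 lay between WT male 3 and WT male 1. Differences were -0.43 ± 0.22 in females, -0.56 ± 0.22 in males and -0.50 ± 0.16 over both sexes (95% interval -0.84 to -0.15). A single library weighed on the male value, WT male 2, the highest of all 12. Without it males differed by -0.26 ± 0.15 and both sexes together by -0.34 ± 0.10. With the cortical covariate these were -0.34 ± 0.22 and -0.38 ± 0.15. Lamp5 is, like Reln, on the list of neocortex and entorhinal cortex genes, and neither gene enters that covariate.

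Among 10 other genes known from the Reln and Lamp5 classes, 4 were lower in AS mice over both sexes, with a median of 0.03 against 0.005 over all 13858 genes tested. Without WT male 2, 6 of the 10 were lower, with a median of -0.05. Cplx3, which encodes a complexin of the release machinery and is found in Lamp5 cells and in deep cortical neurons, differed by -0.51 ± 0.30 and was highest in WT male 2, at 3.40 against 1.03 to 2.37 elsewhere. Sv2c, a synaptic vesicle protein gene, differed by 0.27 ± 0.09, Sema5a, a semaphorin gene, by 0.21 ± 0.12, and Cxcl14, a chemokine gene, by -0.12 ± 0.06. None of the 10 passed an adjusted p of 0.05 in limma (0.893 for Sv2c).

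Vip, the gene of vasoactive intestinal peptide, was the member whose male groups did not overlap. WT females gave 4.11, 4.16 and 4.37 and AS females 4.18, 3.85 and 4.02, while WT males gave 4.35, 4.52 and 4.45 and AS males 4.24, 4.20 and 3.80. In females AS female 1 lay above both WT female 1 and WT female 2. The difference was -0.19 ± 0.13 in females, -0.36 ± 0.13 in males and -0.28 ± 0.09 over both sexes. Both single-sex values rested partly on 1 library, being -0.11 ± 0.13 in females without AS female 2, -0.11 ± 0.14 without WT female 3, and -0.22 ± 0.11 in males without AS male 3. Without WT male 2 the value over both sexes was -0.25 ± 0.10, and without the 4 choroid-rich libraries it was -0.34 ± 0.11. The latter fit leaves WT female 3, the highest WT female for Vip, as the only WT female.

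Calb2, which encodes the calcium buffer calretinin, had opposite differences in the 2 sexes. WT females gave 6.06, 5.85 and 6.23 and AS females 5.37, 5.80 and 5.33. WT males gave 5.78, 4.90 and 5.98 and AS males 5.88, 5.98 and 6.17. AS females lay below WT females without overlap, while in males only WT male 2 was clearly low and the other 2 WT males lay within or close to the AS range. The AS minus WT difference was -0.55 ± 0.23 in females, 0.46 ± 0.23 in males and -0.04 ± 0.17 over both. The difference between the sexes in the genotype effect, male minus female, was 1.01 ± 0.33 (95% interval 0.28 to 1.73). Its unadjusted p in limma was 0.0108 and its adjusted p 0.987 over all genes, with adjusted p from 0.806 to 1 over the alternatives tried. The female value was -0.88 ± 0.39 without the 4 choroid-rich libraries. That fit leaves WT female 3, the highest of all libraries for Calb2, as the only WT female. Without WT male 2 the male difference was 0.13 ± 0.15 and the difference between the sexes 0.68 ± 0.21. In the same library Calb2 was at its lowest and Lamp5 at its highest, and Nr2f2, a transcription factor gene of interneurons from the caudal ganglionic eminence, was also at its lowest (3.18 against 3.43 to 4.25). Htr3a, a serotonin receptor gene of the same interneurons, was likewise lowest there, at 1.90 against 2.38 to 3.14, whereas Vip, of the same interneurons, was at its highest there (4.52). Whether the cells sampled in that piece account for these values was not tested.

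Among 12 other genes of the Vip, Calb2 and Cck classes, 7 were lower in AS mice over both sexes with a median of -0.002. Tac2, a tachykinin gene, differed by 0.31 ± 0.10, Penk, the proenkephalin gene, by -0.25 ± 0.12 and Crh, the gene of corticotropin-releasing hormone, by -0.20 ± 0.17. None passed an adjusted p of 0.05 in limma (0.809 for Tac2).

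Cort encodes cortistatin, a peptide related to somatostatin that binds the same receptors, and it had the lowest level of the 9 genes. WT females gave 3.24, 3.53 and 3.73 and AS females 3.13, 3.42 and 3.20. WT males gave 2.65, 3.13 and 2.68 and AS males 3.44, 3.12 and 3.16. WT males 1 and 3 were the lowest of all libraries, and both genotype comparisons overlapped. The AS minus WT difference was -0.25 ± 0.16 in females and 0.42 ± 0.16 in males, and the difference between them was 0.67 ± 0.22 (95% interval 0.18 to 1.16). In limma its unadjusted p was 0.0115 and its adjusted p 0.987, with a range of 0.806 to 1 over the alternatives. The female difference was -0.14 ± 0.17 without WT female 3 and -0.38 ± 0.16 without the library labelled WT female 1. With 1 library left out the difference between the sexes ran from 0.56 to 0.83, and without the 4 choroid-rich libraries it was 1.05 ± 0.27. The latter fit leaves WT female 3, the highest of all libraries for Cort, as the only WT female.

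Sst, the gene of somatostatin, spanned 8.56 to 8.97 in WT females, 8.31 to 8.54 in AS females, 8.26 to 8.73 in WT males and 8.14 to 8.60 in AS males. The female groups were just separated and the male groups overlapped. Its AS minus WT difference was -0.32 ± 0.15 in females and -0.07 ± 0.15 in males. The female value was -0.19 ± 0.15 without WT female 3 and -0.51 ± 0.17 without the 4 choroid-rich libraries. The latter fit leaves WT female 3, the highest of all libraries for Sst, as the only WT female. In males the difference changed sign without WT male 1 (0.04 ± 0.16), without AS male 2 (0.07 ± 0.14) and without the 4 choroid-rich libraries (0.07 ± 0.13). Npy, the gene of neuropeptide Y, differed by -0.21 ± 0.10 in females and 0.01 ± 0.10 in males, with overlapping groups in both sexes. Without WT female 2 the female value was -0.13 ± 0.11, and with 1 library left out the male value ran from -0.07 to 0.10. Of 10 other genes of the Sst class, 6 were lower in AS mice over both sexes with a median of -0.07. Crhbp, whose product binds corticotropin-releasing hormone, differed by -0.21 ± 0.08 (limma adjusted p = 0.893), and Elfn1, a synaptic organizer gene, by -0.12 ± 0.09.

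Pvalb, the gene of the calcium buffer parvalbumin, spanned 5.19 to 5.44 in WT females and 5.31 to 5.46 in AS females. In WT males it spanned 5.38 to 5.60, the top value being WT male 2 and the highest of all 12 libraries, and in AS males 5.02 to 5.41. Its AS minus WT difference was 0.05 ± 0.11 in females and -0.26 ± 0.11 in males, with overlap in both sexes. The female value changed sign without the library labelled WT female 1 (-0.03 ± 0.11), and the male value was -0.17 ± 0.11 without AS male 1. All 9 other genes of the Pvalb class were lower in AS mice over both sexes (47.3% of all genes), with a small median of -0.05, and 7 of 9 were without WT male 2. In females alone not all were lower, with differences from -0.32 to 0.25, and in males they ran from -0.48 to 0.03. Over both sexes Cox6a2, which encodes a subunit of cytochrome c oxidase, differed by -0.35 ± 0.12, and Kcnc1, a potassium channel gene of fast-spiking cells, by -0.14 ± 0.06, with limma adjusted p of 0.893 and 0.905. Cck, the cholecystokinin gene, differed by -0.08 ± 0.15 in females and -0.13 ± 0.15 in males. Its lowest and highest libraries were AS male 2 (7.62) and AS male 3 (8.34), so that the AS males alone spanned the range of all 12 libraries. Without AS male 2 the male difference changed sign, to 0.08 ± 0.09, and without AS female 1 the female difference was -0.04 ± 0.17.

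**Figure D2:**
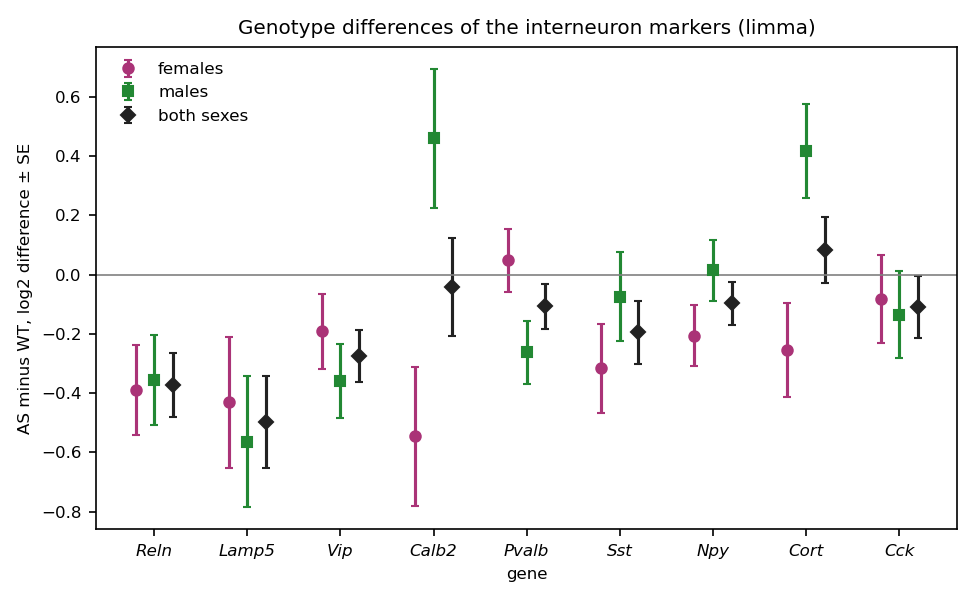
The AS minus WT difference of each gene (log2(abundance + 1), limma, ± standard error) is drawn for females, males and the mean of both sexes. Reln, Lamp5, Vip, Sst and Cck lie below 0 in both sexes. Calb2 and Cort lie below 0 in females (-0.55 and -0.25) and above 0 in males (0.46 and 0.42).

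Counted together, 8 of the 9 genes had a lower mean in AS than in WT females, 6 of 9 in males and 8 of 9 over both sexes, and the shares of all 13858 genes below 0 were 48.4%, 47.6% and 47.3%. The median difference of the 9 genes was -0.25 in females, -0.13 in males and -0.11 over both sexes, against 0.005, 0.008 and 0.005 for all genes tested. In no genotype comparison did any of the 9 pass an adjusted p of 0.05 in limma, in either direction, and the background was 0% of genes. At an unadjusted p under 0.05, 2 of 9 were lower in AS females (background 1.67%), 4 of 9 lower and 1 of 9 higher in AS males (3.21% each) and 3 of 9 lower over both sexes (2.58%). Groups did not overlap for 4 of 9 genes lower in AS females (Reln, Lamp5, Calb2 and Sst, background 4.02%) and for 1 of 9 lower in AS males (Vip, background 5.18%). With the sexes pooled, every AS library lay below every WT library for none of the 9 (background 0.13%). Since these contrasts were known when the genes were chosen, nothing is read from these counts. Without the 4 choroid-rich libraries, which leaves 1 WT female, 8 of 9 were lower in females and 4 of 9 in males. With 1 library left out in turn, 8 or 9 of 9 were lower in females (9 without the library labelled WT female 1). In males 4 to 7 of 9 were lower, 4 without AS male 2, 5 without WT male 1 and 7 without WT male 2, WT male 3 or AS male 3. Over both sexes 7 or 8 of 9 were lower.

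Over both sexes, general markers of interneurons had differences closer to 0 than those of Reln, Lamp5 and Vip, which was not tested. The AS minus WT difference over both sexes was -0.10 ± 0.06 for Gad1, -0.05 ± 0.08 for Gad2, the other GABA-synthesizing enzyme, and -0.04 ± 0.09 for Slc32a1, the vesicular GABA transporter. In females alone, Gad1 (-0.17 ± 0.09) and Gad2 (-0.15 ± 0.11) lay near Vip (-0.19 ± 0.13), and Slc32a1 was -0.02 ± 0.12. Of 5 genes of GABA synthesis, release and uptake, 4 were lower in AS mice over both sexes with a median of -0.05, and all 5 were lower in females. Expressed relative to the mean of Gad1, Gad2 and Slc32a1 in the same library, the AS minus WT difference over both sexes was -0.31 for Reln, -0.435 for Lamp5 and -0.21 for Vip. For Sst, Npy, Pvalb and Cck it was -0.13, -0.03, -0.05 and -0.05, and for Calb2 and Cort it was 0.02 and 0.145. On this relative scale the residual SD within groups was 0.28 for Reln, 0.39 for Lamp5 and 0.21 for Vip. Their relative differences were -0.28, -0.32 and -0.08 in females and -0.34, -0.55 and -0.35 in males. Of 17 interneuron transcription factor genes, 9 were lower with a median of -0.009. Dlx1, a homeodomain gene of developing interneurons, differed by -0.17 ± 0.07, and no gene of these lists passed an adjusted p of 0.05 in limma (0.893 for Dlx1).

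Downstream of reelin, 6 of 23 pathway genes were lower in AS mice over both sexes and 17 were higher, with a median of 0.04 against 0.005 for all genes. Over both sexes Vldlr differed by 0.09 ± 0.06, Lrp8 by 0.03 ± 0.05 and Dab1 by 0.04 ± 0.05. Efnb3, which encodes an ephrin ligand, had the smallest unadjusted p of the pathway, with a difference of 0.27 ± 0.10 and a limma adjusted p of 0.893. None of the 23 passed the threshold.

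Of the receptors of the member peptides, 10 were tested, and 7 were lower in AS mice over both sexes with a median of -0.04. Vipr1, a receptor of vasoactive intestinal peptide, differed by -0.14 ± 0.12, and Adcyap1r1, the receptor of a related peptide, by 0.01 ± 0.04. For the somatostatin and cortistatin receptors Sstr1, Sstr2, Sstr3 and Sstr4 they were -0.03 ± 0.16, -0.05 ± 0.15, 0.08 ± 0.08 and -0.07 ± 0.09. Among the neuropeptide Y receptors, Npy1r differed by -0.14 ± 0.08, Npy2r by 0.07 ± 0.11 and Npy5r by -0.003 ± 0.09. Cckbr, a cholecystokinin receptor gene, differed by -0.18 ± 0.19 and was highest in WT male 2 (3.47). None of the 10 passed an adjusted p of 0.05 in limma, the lowest being 0.92 for Npy1r. Of 10 genes of neuropeptide processing, 6 were lower with a median of -0.01, and none passed.

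None of the 9 genes passed between the sexes. Among WT mice 0 of 9 passed an adjusted p of 0.05 in limma (background 0% lower and 0.0289% higher in males), and at an unadjusted p under 0.05 only Cort did, lower in males (background 3.3%). Cort was -0.68 ± 0.16 in WT males relative to WT females, without overlap of the groups (background 6.62%). The low WT males that give this value also enter its AS minus WT difference in males. Its unadjusted p was 0.00113 and its limma adjusted p 0.522, between 0.128 and 0.966 over the alternatives. Without the library labelled WT female 1 the difference was -0.81 ± 0.16 and without WT male 2 it was -0.84 ± 0.15. Among AS mice 0 of 9 passed (background 0.00722% lower and 0.0289% higher), and Cort differed by -0.01 ± 0.16. Reln and Calb2 were higher in every AS male than in every AS female (background 4.99%), by 0.28 ± 0.15 and 0.51 ± 0.23, each with a limma adjusted p of 1. Without AS male 1 the Reln value was 0.12 ± 0.14. Of the 9 genes, Calb2 alone was higher in AS males at an unadjusted p under 0.05 (background 2.11%). Over both genotypes Reln was 0.26 ± 0.11 higher in males and Cort differed by -0.35 ± 0.11, with limma adjusted p of 0.699 and 0.675. None of the 9 passed there (background 0.00722% lower and 0.0289% higher), and at an unadjusted p under 0.05 these were the 1 gene higher and the 1 gene lower in males (background 3.9% and 3.02%). Without WT male 2 the Reln value was 0.18 ± 0.09. For the difference between the sexes in the genotype effect, 0 of 9 passed (background 0%), and Calb2 and Cort were the 2 of 9 higher at an unadjusted p under 0.05 (background 1.76%).

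**Figure D3:**
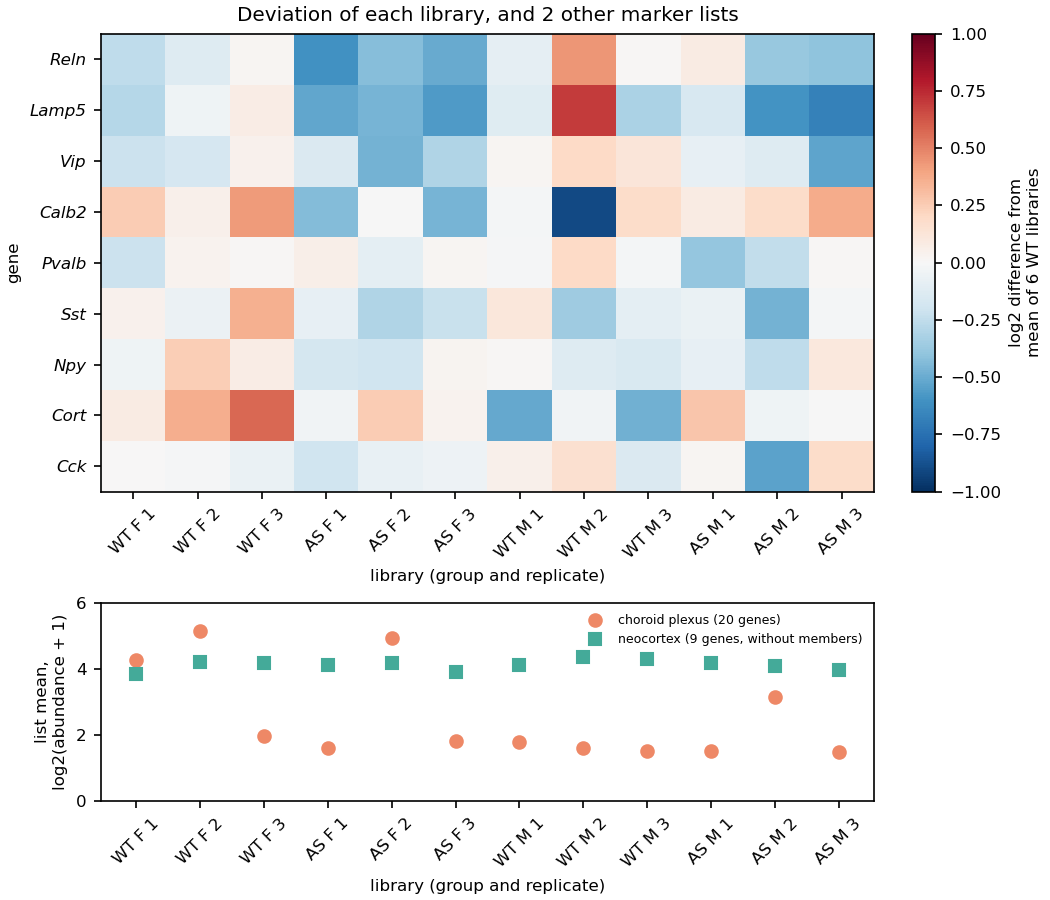
The upper panel colours each library by its log2 difference from the mean of the 6 WT libraries for each gene, and the lower panel gives the mean log2(abundance + 1) of 20 choroid plexus genes and of 9 genes of neocortex and entorhinal cortex in the same libraries. WT male 2 is highest for Reln, Lamp5, Vip and Pvalb, lowest for Calb2 and highest in the cortical genes (4.37). The choroid plexus mean is raised in 4 libraries (3.14 to 5.14).

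Several of the 9 genes varied more between mice of the same group than most genes of similar level. The residual SD was 0.34 for Calb2 and 0.32 for Lamp5, above those of 98.4% and 98% of the 500 genes nearest in mean level, whose median was 0.11 and 0.12. It was 0.21 for Sst, Cck and Reln, at the percentiles 93.4, 92.6 and 91.6, and 0.17 for Vip, at 76.6. The values of Calb2 and Lamp5 rested largely on the WT males, the group that holds WT male 2. The SD of that group was 0.58 for Calb2 and 0.54 for Lamp5. In the other groups it was 0.15 to 0.26 for Calb2 and 0.05 to 0.28 for Lamp5.

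Reln and Lamp5 had the highest correlation of the 36 pairs of genes. Both are also on the list of neocortex and entorhinal cortex genes, and whether cortical tissue accounts for their correlation was not tested. Over the 12 libraries Pearson's r was 0.897, with a two-sided permutation p of 0.0002 and 0.0072 adjusted over the 36 pairs, and Spearman's rho was 0.783, with a permutation p of 0.00389 and an adjusted p of 0.07. The r was 0.824 without the 2 libraries farthest from the median of Reln and 0.812 without WT male 2. No pair passed the adjustment without WT male 2, and none without the 4 choroid-rich libraries, where this r was 0.896. This p also includes the AS minus WT differences by which both genes were chosen. With the mean of each group subtracted, r was 0.903, and an exact permutation within the groups, which uses none of those differences, gave p = 0.017 and 0.204 after adjustment over the 36 pairs. The smallest p that its 1296 orders allow for a single pair is 0.00077.

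Reln with Vip gave r = 0.758 (permutation p = 0.004, adjusted 0.072) and rho = 0.783 (p = 0.00374, adjusted 0.07). Lamp5 with Vip gave 0.724 (permutation p = 0.00651, adjusted 0.0781) and rho = 0.657 (p = 0.0244, adjusted 0.22). After subtraction of group means these were 0.469 and 0.461. Of the 36 pairs, 26 had a positive r, 4 had an unadjusted permutation p under 0.05 and 1 passed after adjustment.

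Cort had a high r with Reln and Lamp5 within groups but not across them. Its r with Reln was -0.008 over the deposited values and 0.919 after group means were subtracted, and with Lamp5 it was 0.133 and 0.868. Leaving out WT male 2 as well gave 0.865 and 0.811. The exact permutation within groups gave p = 0.00154 for Cort with Reln, 0.0556 after adjustment, and p = 0.00694 for Cort with Lamp5, 0.125 after adjustment, so that 0 of the 36 pairs passed. At an unadjusted p under 0.05 there were 3, these and Reln with Lamp5. The negative relation of Lamp5 and Calb2 after subtraction (r = -0.754) was -0.181 without WT male 2 and so rested on that library.

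**Figure D4:**
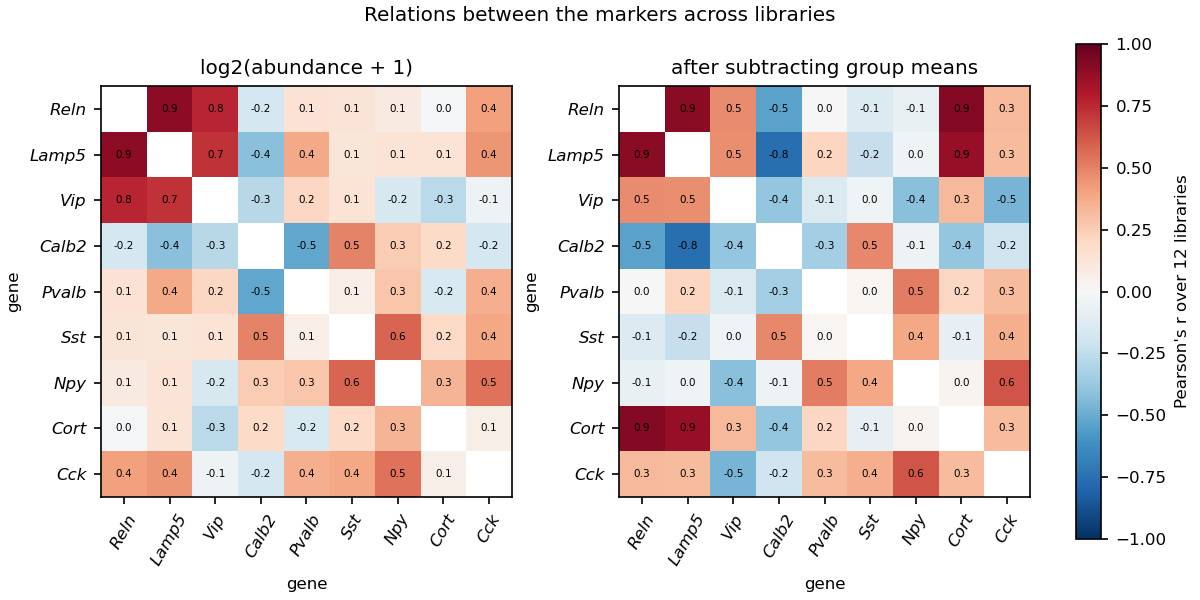
Each cell gives Pearson's r between a pair of genes over 12 libraries, for log2(abundance + 1) on the left and after subtracting the mean of each group on the right. Reln and Lamp5 give 0.9 in both panels, whereas Cort with Reln goes from 0.0 to 0.9 and Lamp5 with Calb2 from -0.4 to -0.8.

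The genes with the most similar profile were ranked by r over the 12 libraries among 12364 other genes, without a test, since the libraries share the same groups and the same piece of tissue. For Reln they were Nmnat2 (0.94), March2 (0.921), Rgs6 (0.904), Ddx41 (0.897) and Lonrf1 (0.896). Lamp5 was nearest to Nmnat2 (0.934), Cox6a2 (0.923) and Rps6kc1 (0.91), and Vip to Ddx41 (0.925), Elmo1 (0.912) and Clip1 (0.887). Nmnat2, an NAD-synthesizing enzyme of axons, was thus first for both Reln and Lamp5, and its r with them was 0.958 and 0.882 after group means were subtracted. Calb2 was nearest to Vgll3 (0.952), Cpne2 (0.915) and Cryzl2 (0.894). Sst was nearest to Lhx6 (0.89), a homeodomain gene of interneurons from the medial ganglionic eminence, and their r was 0.976 after group means were subtracted. The first gene was Xrcc3 (0.85) for Pvalb, Irf2bp1 (0.857) for Npy, Alkal2 (0.853) for Cort and Rplp0 (0.925) for Cck.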

How the data were processed

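Polyadenylated RNA of 12 mice was sequenced as paired reads, per the labels' protocols. The submitters' processing notes name Trimmomatic, Bowtie2, RSEM and GRCm38 (mm10) and give no versions. The deposited table was read as the natural log of an RSEM abundance plus 1. Whether the abundance is TPM or FPKM, the log base and the normalization are not given in the sources used here. Of the values of the library labelled WT female 1 between 2 and 5 on the natural log scale, 100% occurred in all 12 libraries. All values of Reln, Lamp5, Vip, Calb2, Pvalb and Npy lie in that range. Outside it the share was 96.63% from 1 to 2, 16.16% from 0 to 1, 15.92% from 5 to 6 and 0% above 6. Quantile normalization would give shared values, but at every level, so these shares do not settle the method. Sst and Cck lie above 5. The values hold no counts, so the depth is unknown, and limma was used on log2 values as planned for normalized data.

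The logs were rescaled to base 2. A filter that asked for a mean abundance of at least 1 removed 93 genes and kept 13858. One model of 4 group means was fitted with limma 3.58.1 in R 4.3.3 with a trended prior (8 residual degrees of freedom), with Benjamini-Hochberg adjustment over all genes, and 7 contrasts were taken. Relations between genes used 100000 permutations over libraries and, added after seeing the data, all 1296 orders within groups, with numpy 2.4.6 (scipy 1.17.1 for ranks). The fit and the permutation test were tested on simulated data. Symbols and coordinates come from the GENCODE annotation of GRCm38 and promoters from RefSeq. Proteins were not used here. The labels do not say that the mice came from separate litters, so p-values measure the spread between these mice. Replicate numbers follow accession order.

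The 9 genes, the marker lists and the tests were chosen with earlier results of these data known. Beside the 9 genes, the text names Gad1, Gad2, Slc32a1, Vldlr, Lrp8, Dab1, the receptors of the peptides, up to 4 genes of each other list with the smallest p over both sexes, and the 5 (Reln) or 3 genes with the most similar profile. Xist, Eif2s3y, Ube3a, Ndnf, Cacna2d2 and the genes described for WT male 2 were named after their values were seen. Alternatives were other added constants, other filters, quantile normalization again, weights, a robust or untrended prior, a choroid plexus covariate, fits of the compared groups, libraries left out, base 2, levels relative to GABA genes and a cortical covariate.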

Additional observations from a re-analysis of the deposited data

Results flagged for a closer look

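Calb2 and Cort drew attention because their genotype differences had opposite signs in the 2 sexes. In each gene every AS female lay below the mean of WT females and every AS male lay above the mean of WT males. The difference between the sexes, male minus female, was 1.01 for Calb2 and 0.67 for Cort on the log2 scale, and neither passed in limma (adjusted p = 0.987 for each). It is formed from the same AS minus WT differences by which the genes were chosen. For Calb2 the direction was the same in all 25 alternatives, with values from 0.68 to 1.35, and for Cort in all 25, with values from 0.47 to 1.05. Groups of 3 libraries are too small for a search for single outlying samples.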

How the results depend on the processing

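None of the 9 genes passed an adjusted p of 0.05 in the main fit or in any alternative for which its value was kept. For sex differences within 1 genotype, alternatives were kept only for Cort and Calb2 in WT mice and for Reln and Calb2 in AS mice. All 9 genes were followed in the other comparisons. Levels relative to GABA genes were given no p-value. Of the values kept, 675 of 693 for the AS minus WT differences and 525 of 554 for the tested differences had the same direction. Genes called over the whole table without the 4 choroid-rich libraries were 5 in females, 1 in males, 2 over both sexes, 2 for the difference between the sexes, 7 between WT sexes and 12 between sexes over both genotypes. That fit leaves 1 WT female, which is assumed to vary like the other groups. With 1 library left out they were 0 to 1 in females, 0 to 1 in males, 0 to 2 over both sexes, 0 to 1 for the difference between the sexes, 4 to 8 between WT sexes, 2 to 8 between AS sexes and 4 to 8 over both genotypes. A mean abundance of at least 5 gave 2, 3 and 3 for the sex comparisons in WT, AS and both, a constant of 0.1 gave 2 in AS, a fit of only the compared groups 3 in AS, and the cortical covariate 8 over both. The difference between the sexes in the genotype effect changed sign for Lamp5 without the 4 choroid-rich libraries (0.11), with the cortical covariate (0.079) and with 1 library out (-0.33 to 0.17), for Cck with library weights (0.14), without those 4 (0.14) and with 1 out (-0.20 to 0.16), and for Reln with 1 out (-0.12 to 0.20). The sex difference over both genotypes changed sign for Lamp5 with the cortical covariate (-0.014) and 1 out (-0.046 to 0.21), for Vip without those 4 (-0.005), for Calb2 with 1 out (-0.10 to 0.18) and for Cck with the choroid plexus covariate (-0.025) and 1 out (-0.052 to 0.13). Relative to GABA genes, this sex difference also changed sign for Calb2 (-0.012) and Cck (-0.001). On that scale the difference between the sexes in the genotype effect changed sign for Reln (-0.065). Related pairs numbered 3 after group means were subtracted, with p-values that are too small because the residuals of a group sum to 0, 0 with the exact permutation within groups, 0 without the 4 choroid-rich libraries, and 0 to 2 with 1 library out, 0 being without WT male 2. The cause of these shifts was not tested. The cortical covariate, the permutation within groups, base 2 and the libraries left out for pairs were chosen after seeing the data. With base 2 the differences were smaller, -0.26 for Reln over both sexes. No paired analysis was possible because the replicate numbers were given in accession order and so match no mouse with another.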
